A study of Rattus norvegicus with 6 samples.

Results

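The genes described here encode proteins of the centrosome and of the centrioles at its core, measured in rat keratinocytes with and without exposure to heavy iron ions. They were chosen by name: every gene whose single symbol in the platform annotation is Cep followed by a number, other than Cep55, and 13 others named one by one (Plk4, Sass6, Stil, Cenpj, Pcnt, Cdk5rap2, Tubg1, Tubgcp2, Tubgcp3, Cetn2, Cetn3, Ninl and Haus1). This gave 44 genes out of 14217 with a single symbol. Where a gene had several probe sets, the measured value that selected one was the highest mean intensity over all 6 arrays, and the difference between the groups was not used. Of the 44 genes, 39 passed the filter on low values (mean intensity above 18.0) and were tested. The other 5 (Cep72, Cep97, Cep126, Cep290 and Cep295nl) had mean intensities from 6.23 to 17.8 and give no usable change. Cntrob and Cep192 are not analysed here.

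The cells were an immortalized line of keratinocytes from the back skin of newborn Sprague-Dawley rats. In the first group, 3 samples had no treatment. In the second, 3 samples received 3 Gy of 56Fe ions at 1.01 GeV per nucleon, and the labels used here do not give the time from exposure to RNA extraction. Each sample was read on 1 Affymetrix rat 230 2.0 array. All samples come from 1 cell line, and nothing in the labels says that replicates were separate cultures, so the p-values reflect variation among these arrays alone, and that variation may be technical. Hybridisation and scanning order are also not given, and a processing difference between the groups was not tested.

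The centrosome organises the microtubules of an animal cell. It is built from a pair of centrioles inside a cloud of pericentriolar material, in which gamma-tubulin complexes start new microtubules. Centrioles are copied in step with DNA replication: the kinase Plk4 marks the site on the parent centriole, its partner Stil brings in Sass6, and Sass6 builds the cartwheel on which the new centriole forms. At the onset of mitosis the linker that holds the centrosomes together dissolves and each one forms a spindle pole, while in resting cells the older centriole can carry a primary cilium.

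Levels below are linear intensities of probe sets. Log2 changes are irradiated minus unirradiated on the log2(intensity + 16) scale, which understates changes of dim genes, and are given ± SE. A gene was called changed at a limma p below 0.05 after Benjamini-Hochberg adjustment over all 18625 tested probe sets. In bulk RNA, a larger share of cells at a stage of the cell cycle and more RNA per cell cannot be told apart.

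After irradiation, 6 of the 39 tested centrosome and centriole genes rose and 0 fell. Over all 10351 tested genes, 2.00% were called higher and 0.773% lower. The 6 genes were Stil, Cep57l1, Plk4, Cep250, Sass6 and Cep70, with ratios of mean intensity from 1.44 to 1.83. Among them are Plk4, Stil and Sass6, which act together at the start of a new centriole. The other 13 tested genes of centriole copying were not called, among them Cep152, which brings Plk4 to the parent centriole. Their log2 changes ran from -0.20 (Cep350) to 0.36 (Cep295). At an unadjusted limma p below 0.05 there were 15 of the 39 genes (38.5%), against 15.7% of all tested genes. In 15 of the 39, all 3 irradiated arrays lay above all 3 unirradiated arrays, and in 0 they lay below; over all tested genes these shares were 11.8% and 10.1%. The median log2 change of the 39 was 0.20 against 0.00 over all tested genes, 29 lay above 0 and 10 below, and the range ran from -0.25 to 0.81. The medians by array were 0.26, 0.19 and 0.17 in the irradiated samples and -0.01, 0.03 and -0.04 in the unirradiated samples, each measured from the unirradiated mean.

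**Figure D1:**
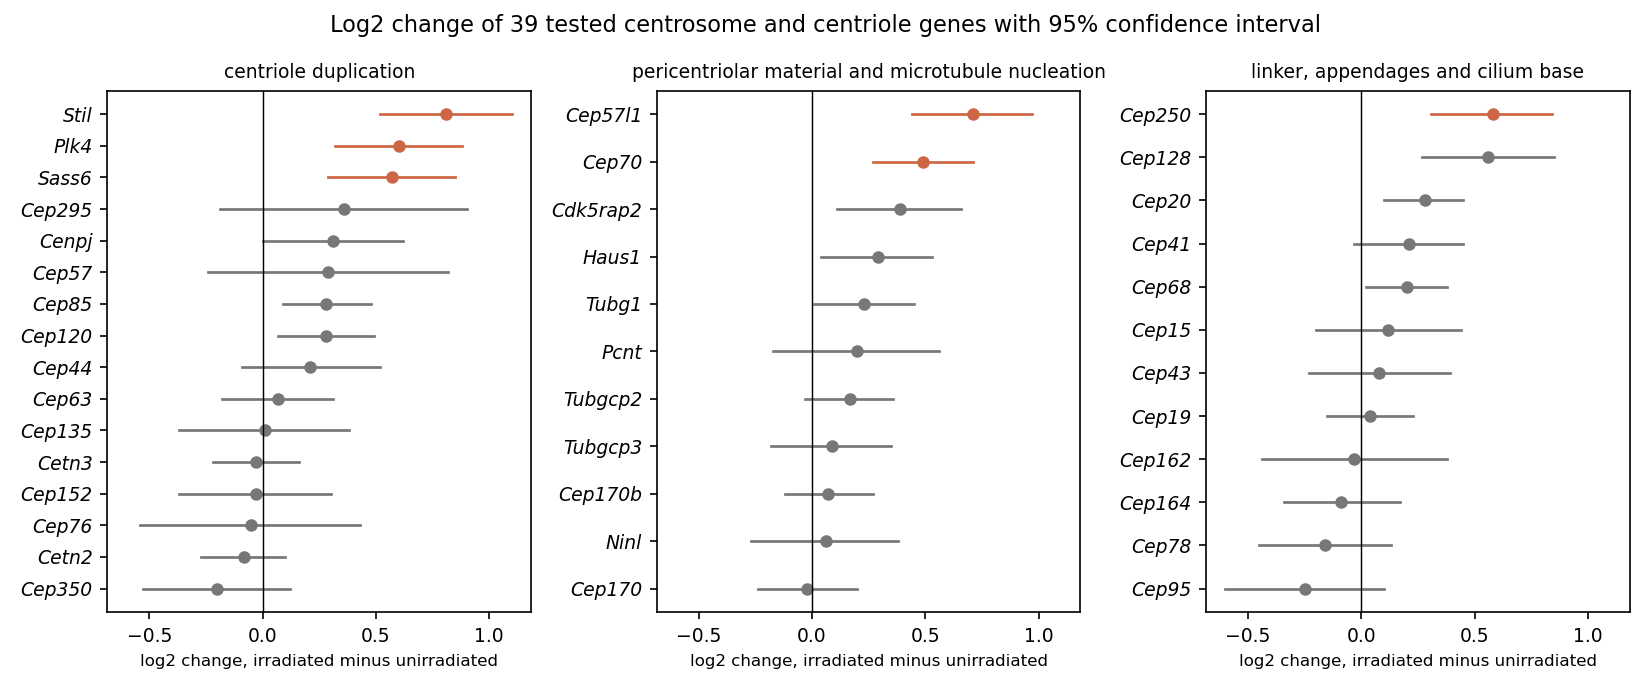
Log2 change (irradiated minus unirradiated, horizontal axis) of the 39 tested genes, split by role; points are estimates, lines are 95% confidence intervals from limma, and orange marks the 6 genes called higher. Estimates run from -0.25 (Cep95) to 0.81 (Stil), and most intervals of genes not called cross 0.

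Plk4, Stil and Sass6 were higher in every irradiated sample than in any unirradiated one. Stil read 150.7, 119.9 and 100.5 without irradiation and 212.0, 229.7 and 236.5 with it. Its lowest irradiated value was thus well clear of the highest unirradiated one, a 1.83-fold rise from 124 ± 25.3 to 226 ± 12.6 (mean ± SD, n = 3 arrays), and the log2 change was 0.81 ± 0.13 (limma adjusted p = 0.00652). The kinase gene Plk4 read 153.0, 152.8 and 110.1 without and 208.7, 212.8 and 226.6 with irradiation. The unirradiated arrays of Plk4 were spread, with replicate 3 low, and the irradiated ones were close together; the log2 change was 0.60 ± 0.13 (limma adjusted p = 0.0337). Sass6, the cartwheel protein gene, read 100.6, 78.9 and 105.6 without and 154.7, 147.5 and 141.6 with irradiation. The groups did not overlap in Sass6 either, and its log2 change was 0.57 ± 0.13 (limma adjusted p = 0.041). The call of Plk4 ended when any array but unirradiated replicate 2 was left out (adjusted p up to 0.121), and also in the fits after quantile normalization, without the filter or without the intensity trend (up to 0.107). That of Sass6 ended when any array but unirradiated replicate 3 was left out (up to 0.149), and in 5 of 11 other fits. Stil passed in all 18 alternatives, though the looser threshold of 0.1 could not end a call.

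The DNA around the start sites of these 3 genes is shown because they rose together and belong to the same step. The plan had been to show the called genes with the smallest limma p. By that rule Cep57l1, Cep70 and Cep250 come before Plk4 and Sass6. Sequences are from RefSeq, rat build GRCr8, 5′ to 3′ on the strand of the gene, from 250 bases before to 50 after the annotated start, and the first base after those 250 is counted as 1. Capitals mark matches, on either strand, to motifs known from cell cycle promoters: the cell cycle homology region (TTTGAA or TTCGAA), the CCAAT box bound by NF-Y (CCAAT) and E2F-like letters (TTGGCGC or TTCGCGC or TTCCCGC or TTGCCGC). The reverse of a CCAAT box and TTGGCGC can overlap. Plk4 lies at chr2:125730230-125730529 (plus strand), Sass6 at chr2:207231646-207231945 (plus strand) and Stil at chr5:133757381-133757680 (plus strand).
Plk4: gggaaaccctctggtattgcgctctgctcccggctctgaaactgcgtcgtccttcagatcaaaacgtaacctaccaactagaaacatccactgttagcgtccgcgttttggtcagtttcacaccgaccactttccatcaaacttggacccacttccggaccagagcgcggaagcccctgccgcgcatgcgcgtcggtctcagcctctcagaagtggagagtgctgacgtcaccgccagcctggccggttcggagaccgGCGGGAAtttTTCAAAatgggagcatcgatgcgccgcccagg
Sass6: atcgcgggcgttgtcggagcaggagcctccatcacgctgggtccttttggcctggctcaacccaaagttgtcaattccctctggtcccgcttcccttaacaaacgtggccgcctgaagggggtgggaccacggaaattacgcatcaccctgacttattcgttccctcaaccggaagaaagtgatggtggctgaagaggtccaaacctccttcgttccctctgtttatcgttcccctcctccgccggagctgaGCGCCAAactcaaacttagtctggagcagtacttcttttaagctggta
Stil: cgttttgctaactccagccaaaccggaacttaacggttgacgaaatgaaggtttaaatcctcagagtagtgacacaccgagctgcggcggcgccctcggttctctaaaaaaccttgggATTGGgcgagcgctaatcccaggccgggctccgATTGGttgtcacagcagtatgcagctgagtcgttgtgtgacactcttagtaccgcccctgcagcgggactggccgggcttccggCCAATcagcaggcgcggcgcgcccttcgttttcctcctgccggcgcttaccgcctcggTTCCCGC

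Each of the 3 windows held 1 E2F-like match, at bases 9 to 15 in Plk4, 3 to 9 in Sass6 and 44 to 50 in Stil. In Plk4 a reversed TTTGAA followed at bases 19 to 24, and Stil held 3 CCAAT boxes, while Sass6 had neither motif. Of the 44 genes, 42 had a window in the table, and where there were several the one listed first was read. E2F-like letters were in 3 of 6 windows of called genes, in 11 of 31 windows of tested genes that were not called, in 18.3% of 8679 windows of all tested genes and in 10% of all 27457 windows. The 3 called genes with these letters are the ones shown, and the windows of Cep250, Cep57l1 and Cep70 held 0. The cell cycle homology region was in 2 of 6, 8 of 31, 13% and 19.5% in the same order, and the CCAAT box in 3 of 6, 16 of 31, 38% and 37.7%. The other called gene with a cell cycle homology match was Cep250, at bases -197 to -192, and Cep57l1 and Cep70 each held 1 CCAAT box. These are matches of letters; binding was not measured.

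**Figure D2:**
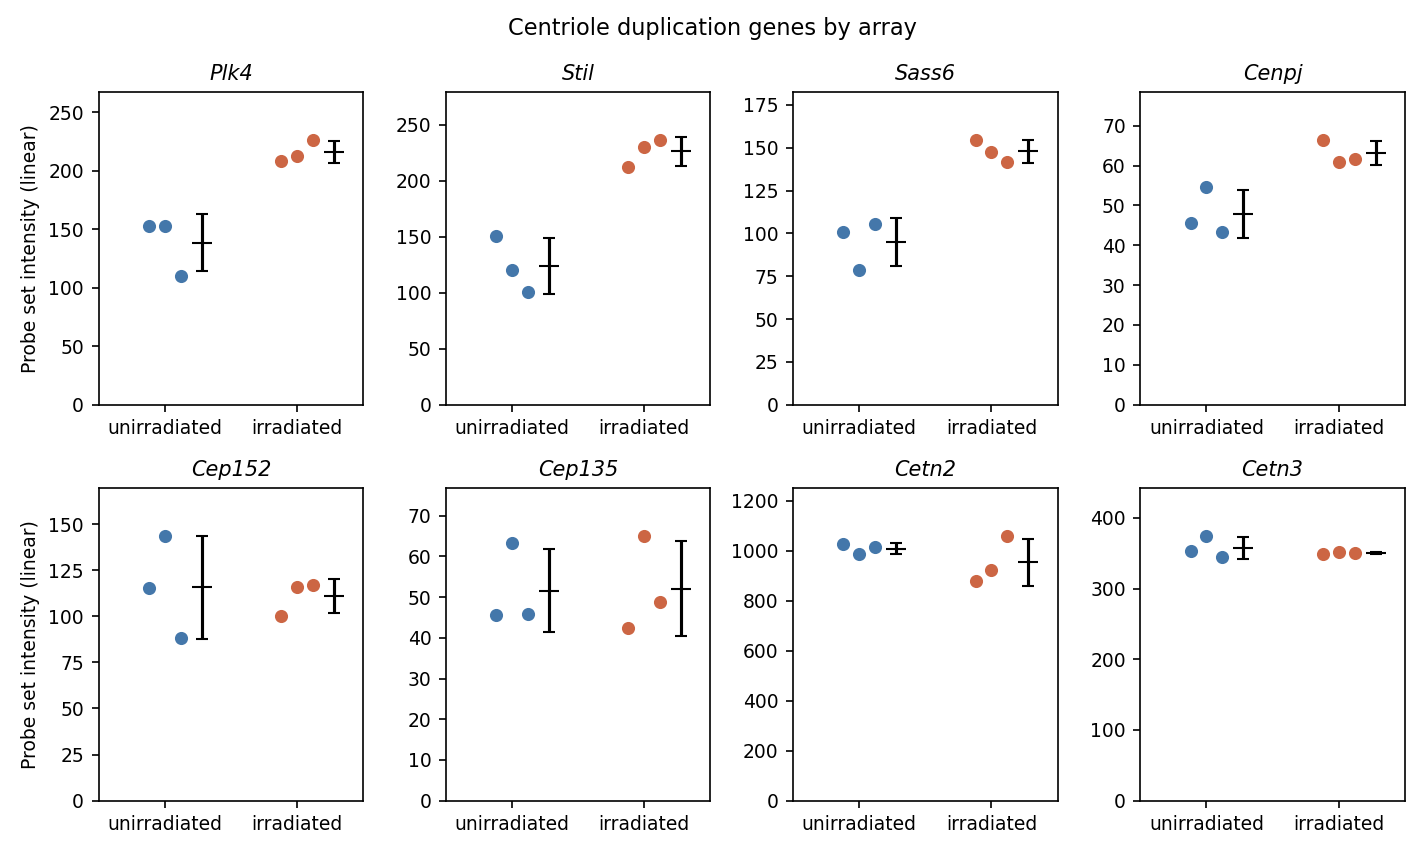
Probe set intensity (linear, vertical axis from 0) of 8 centriole duplication genes on each unirradiated (blue) and irradiated (orange) array; black marks are mean ± SD of 3 arrays. In Plk4, Stil, Sass6 and Cenpj all irradiated points lie above all unirradiated ones, and in Cep152, Cep135, Cetn2 and Cetn3 the groups overlap.

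Other genes of centriole assembly, some of which act before or beside Plk4 and Stil, gave smaller log2 changes or no detectable difference. Cenpj, which sets centriole length, read 45.6, 54.6 and 43.3 without and 66.5, 61.0 and 61.7 with irradiation. The groups did not overlap, but its log2 change of 0.31 ± 0.14 was not called (limma adjusted p = 0.371). Cep120, which acts with Cenpj in centriole elongation, was tight without irradiation, at 223.2, 221.9 and 223.7, and read 273.6, 256.4 and 293.7 with it. Its log2 change was 0.28 ± 0.10 (limma adjusted p = 0.199), and that of Cep85, which binds Stil, was 0.28 ± 0.09 (limma adjusted p = 0.159). Cep152, the scaffold that brings Plk4 to the parent centriole, read 115.2, 143.7 and 88.1 without and 100.1, 115.9 and 116.8 with irradiation. Its groups overlapped fully, and the 95% confidence interval of its log2 change ran from -0.37 to 0.30. The interval of Stil ran from 0.52 to 1.10 and that of Plk4 from 0.32 to 0.88. Cep63, the partner of Cep152 at the parent centriole, had a log2 change of 0.07, with an interval from -0.18 to 0.31.

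Cep135, which joins the cartwheel to the centriole wall, read 45.6, 63.4 and 45.9 without and 42.4, 65.1 and 48.7 with irradiation. Its log2 change of 0.01 had an interval from -0.37 to 0.38, and its sign turned with quantile normalization, median centring and cyclic loess. The centrins, calcium-binding proteins inside the centriole, were measured more tightly. Cetn2 read 1026.6, 985.6 and 1014.6 without and 879.6, 922.1 and 1060.3 with irradiation, which gives a log2 change of -0.08 and an interval from -0.27 to 0.10. Cetn3 read 353.4, 374.9 and 345.3 without and 348.7, 351.6 and 350.1 with irradiation, which gives a log2 change of -0.03 and an interval from -0.22 to 0.16. A rise of the size estimated for Sass6, 0.57, lies outside the intervals of Cep152, Cep63, Cep135, Cetn2 and Cetn3. That estimate has its own interval, from 0.29 to 0.85, which overlaps those of Cep152, Cep63 and Cep135. Differences between genes were not tested.

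In all, 3 of 16 tested duplication genes rose (18.8%, against 2.00% of all tested genes), 0 fell and 13 were not called. The median log2 change of the 16 was 0.25. The lowest was Cep350, a large centriole and microtubule protein, at -0.20 ± 0.15. It read 178.6, 167.2 and 162.7 without and 121.8, 129.8 and 192.6 with irradiation, so that irradiated replicate 3 lay above all the others. Cep76, a suppressor of centriole reduplication, varied widely within both groups, from 189.8 to 377.9 without and 232.9 to 383.3 with irradiation, and its interval from -0.54 to 0.43 is wide. Cep57, which keeps paired centrioles engaged, had 1 unirradiated array far below its other values, at 86.7, 89.8 and 32.8 without and 85.1, 90.0 and 74.6 with irradiation.

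Among genes of the pericentriolar material and of microtubule nucleation, 2 of 11 tested rose (18.2%, against 2.00% of all tested genes). Of these 11, 0 fell and 9 were not called, and the median log2 change was 0.20. Cep57l1 is a paralogue of Cep57, which was counted with the duplication genes, so the counts by role depend on how this pair was split. Cep57l1 read 84.6, 79.1 and 68.8 without and 140.3, 136.1 and 132.5 with irradiation. The irradiated values lay within a narrow band far above the others, a 1.76-fold rise with a log2 change of 0.71 ± 0.12 (limma adjusted p = 0.00912). The call of Cep57l1 held in all 18 alternatives, though the looser threshold of 0.1 could not end a call. A second, dimmer probe set of Cep57l1 had a log2 change of 0.33 ± 0.17 and was not called. Cep70, which binds gamma-tubulin and microtubules, read 186.2, 197.4 and 181.3 without and 278.7, 286.2 and 249.5 with irradiation. Its groups did not overlap, and the log2 change was 0.49 ± 0.10 (limma adjusted p = 0.0234). The call of Cep70 ended without irradiated replicate 1 or 2 or unirradiated replicate 1 or 3 (adjusted p up to 0.146) and without the intensity trend (0.0784).

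The main scaffolds of the material were not called. Cdk5rap2, which recruits and activates gamma-tubulin complexes, read 108.3, 143.5 and 128.0 without and 155.3, 168.9 and 184.8 with irradiation. All irradiated values were higher, with a log2 change of 0.39 ± 0.13 (limma adjusted p = 0.174), and its other probe sets gave 0.19 and 0.26. Pericentrin (Pcnt) read 78.1, 69.3 and 77.0 without and 99.3, 107.4 and 63.1 with irradiation. The third irradiated array was the lowest of all 6 for Pcnt and the other 2 were the highest; its log2 change was 0.20 ± 0.17. Ninl, a ninein-like protein that anchors microtubules, had overlapping groups and a log2 change of 0.06.

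None of the tested genes for gamma-tubulin and the proteins that bind it in ring complexes was called. Tubg1, the gamma-tubulin gene itself, read 505.2, 426.5 and 445.6 without and 599.3, 483.6 and 538.3 with irradiation. The groups overlapped, since the first unirradiated array exceeded the second irradiated one, and the log2 change was 0.23 ± 0.10 (limma adjusted p = 0.355). Tubgcp2 had a log2 change of 0.17 ± 0.09 without overlap between groups, and Tubgcp3 one of 0.09 ± 0.12 with overlap. With Tubgcp4, Tubgcp6, Mzt1, Mzt2b and Nedd1 from a list of other centrosome genes, 8 genes of this complex and its adaptors were tested and 0 were called by limma. Their log2 changes ran from -0.12 (Mzt2b) to 0.39 (Mzt1) with a median of 0.20, and 7 lay above 0 and 1 below. At an unadjusted limma p below 0.05 there were 2 of these 8 (25%), against 15.7% of all tested genes. With 2.00% of all tested genes called higher, a count of 0 among 8 is near the general share.

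Haus1 belongs to augmin, a complex that branches new microtubules off existing spindle microtubules. It read 141.6, 177.6 and 175.7 without and 212.4, 198.2 and 201.0 with irradiation, with a log2 change of 0.29 ± 0.11 (limma adjusted p = 0.284), and its dimmer probe set gave 0.68 ± 0.20, also not called. Together with Haus4, Haus5, Haus6, Haus7 and Haus8, 6 augmin genes were tested. All 6 had log2 changes above 0, from 0.10 to 0.64 with a median of 0.37, and in 5 the irradiated arrays lay above the unirradiated ones without overlap. Over all tested genes, 49.8% had a log2 change above 0, 11.8% lay higher without overlap and 2.00% were called higher. Haus7 read 252.9, 253.5 and 249.0 without and 352.7, 351.2 and 344.0 with irradiation. Haus7 was the 1 augmin gene that rose, by 0.45 ± 0.09 (limma adjusted p = 0.0177), a call that ended without unirradiated replicate 1 or 2, irradiated replicate 1 or 2, or the intensity trend. The gamma-tubulin and augmin groupings were made after the values were seen.

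**Figure D3:**
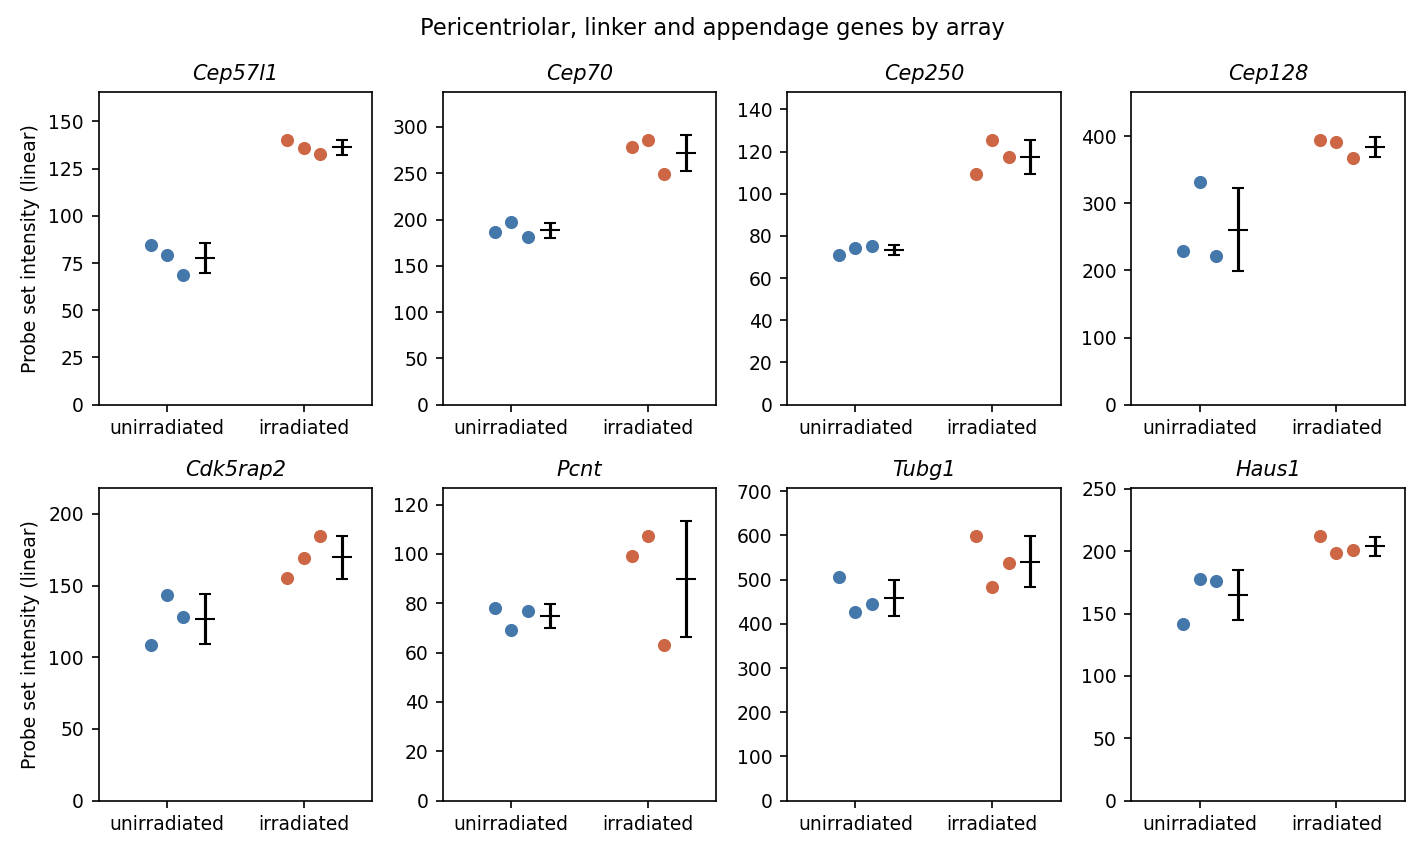
Probe set intensity (linear, vertical axis from 0) of 8 pericentriolar, linker and appendage genes on each unirradiated (blue) and irradiated (orange) array; black marks are mean ± SD of 3 arrays. The groups are apart in Cep57l1, Cep70, Cep250, Cep128, Cdk5rap2 and Haus1, and overlap in Pcnt and Tubg1.

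Of genes for the centrosome linker, appendages and base of the cilium, 1 of 12 tested rose (8.33%, against 2.00% of all tested genes). Of these 12, 0 fell and 11 were not called, and the median log2 change was 0.10. The gene that rose was Cep250, also known as C-Nap1, which anchors the linker to the centriole end. It read 70.9, 74.1 and 75.0 without and 109.2, 125.6 and 117.6 with irradiation. The groups were far apart relative to their spread, a 1.60-fold rise with a log2 change of 0.58 ± 0.12 (limma adjusted p = 0.0296). The call of Cep250 ended when any 1 array was left out (adjusted p from 0.0606 to 0.15) and without the filter (0.0704), while the log2 change stayed between 0.53 and 0.62 in the fits without 1 array. Cep68, a second linker protein, read 400.3, 396.0 and 381.4 without and 455.1, 437.8 and 470.3 with irradiation. Its groups did not overlap, and its log2 change was 0.20 ± 0.08, not called.

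Cep128, a subdistal appendage protein, just missed the threshold and was not called. It read 228.5, 332.1 and 221.6 without and 394.9, 391.4 and 367.4 with irradiation. Unirradiated replicate 2 stood apart from its group, and the log2 change was 0.56 ± 0.13 (limma adjusted p = 0.0564). Without that array, the log2 change of Cep128 was 0.73 with a limma adjusted p = 0.00362. Cep20, a small protein of the ciliary base, read 687.9, 648.8 and 746.2 without and 863.5, 851.1 and 815.4 with irradiation, a log2 change of 0.28 ± 0.08 without overlap (limma adjusted p = 0.128).

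The distal appendage and cilium proteins showed no detectable difference. Cep164, which docks the mother centriole to the membrane, had overlapping groups and a log2 change of -0.09 ± 0.12; its other tested probe sets gave 0.29 and -0.09. Cep162, of the ciliary transition zone, was at -0.03 ± 0.19 and Cep19 at 0.04 ± 0.09. The lowest values of all 39 were those of Cep95 (-0.25 ± 0.16) and Cep350, followed by Cep78 (-0.16 ± 0.14), and none of these 3 was called. Cep95 read 63.9, 86.5 and 59.2 without and 62.4, 58.1 and 46.8 with irradiation, with overlap between the groups.

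Of the 44 genes, 12 had more than 1 probe set, with 20 further probe sets in all. Of these, 7 lay below the filter and 13 were tested; 11 had the same sign as the probe set used and 2 the opposite sign (1 each of Cep164 and Cep76), and limma called 0 of the 13 after adjustment. The probe set used for Cep295, needed to turn new centrioles into centrosomes, may cross-detect related transcripts by its name, and gave 0.36 ± 0.25. The other tested probe sets of Cep295 gave 0.51 ± 0.24 and 0.55 ± 0.15, so this gene lay above 0 on all 3. Except for Cep57l1, the genes called higher had 1 probe set each.

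Other centrosome genes were taken from a list written for this comparison. Of 71 tested, 11 rose (15.5%, against 2.00% of all tested genes) and 0 fell (against 0.773%). The other 60 were not called, and the median log2 change of the 71 was 0.20. The largest rise of the 71 was that of separase (Espl1), which cuts cohesin and frees the paired centrioles for copying. It went from 288 ± 5.33 to 600 ± 49.5 (log2 change 1.01). Ccdc77, which encodes a coiled-coil protein, went from 143 ± 10.4 to 289 ± 50.4 (0.93), and Poc5, which binds centrin inside the centriole, from 138 ± 21.6 to 226 ± 13.6 (0.66). The other 8 that rose were the spindle pole kinase Aurka (0.90), its partner Tacc3 (0.92), the hyaluronan-mediated motility receptor Hmmr (0.77), Bard1 (0.72), Gtse1 (0.68), Haus7 (0.45), the spindle pole protein Numa1 (0.42) and the dynein regulator Nde1 (0.38). With 1 array left out, 6 of the 11 kept their limma call each time, and 5 did not. Besides Haus7 these were Poc5 (without unirradiated replicate 1 or 2 or irradiated replicate 2, adjusted p up to 0.0861), Numa1 (without replicate 1 or 2 of either group, up to 0.138), Bard1 (without irradiated replicate 3, 0.056) and Nde1 (whichever of the 6 arrays was left out, up to 0.11). Without the intensity trend, the limma calls of Poc5 (adjusted p = 0.06), Numa1 (0.12) and Nde1 (0.131) ended as well, and that of Numa1 also with probe sets averaged (0.0622). Several are better known for roles in mitosis or DNA repair than at the centriole. A group of 13 such genes was set aside after the values were seen (Aurka, Tacc3, Espl1, Numa1, Hmmr, Gtse1, Bard1 and others). Of the remaining 58, 4 rose (6.9%), 0 fell and the median was 0.15.

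Cilium assembly genes, which act on the same centriole in resting cells, gave no calls. Limma called 0 of 44 tested, 4 (9.09%) had an unadjusted p below 0.05, and their log2 changes ran from -0.37 to 0.35 with a median of 0.02. Over all tested genes, 2.00% were called higher, 0.773% were called lower and 15.7% had an unadjusted limma p below 0.05. A count of 0 among 44 genes is thus near the general share. By contrast, of 22 tested genes of mitosis proper, such as Ccnb1, Plk1 and Bub1, 21 rose with a median of 0.71. The mitosis genes were also brighter. Their median intensity was 730, against 119 for the cilium genes and 175 for the 39 centrosome and centriole genes. The part of this difference in level in the counts of calls was not tested. The windows of the mitosis genes held the cell cycle homology region in 15 of 20, the CCAAT box in 16 of 20 and E2F-like letters in 4 of 20. Over windows of all tested genes these shares were 13%, 38% and 18.3%. Differences between these lists were not tested.

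**Figure D4:**
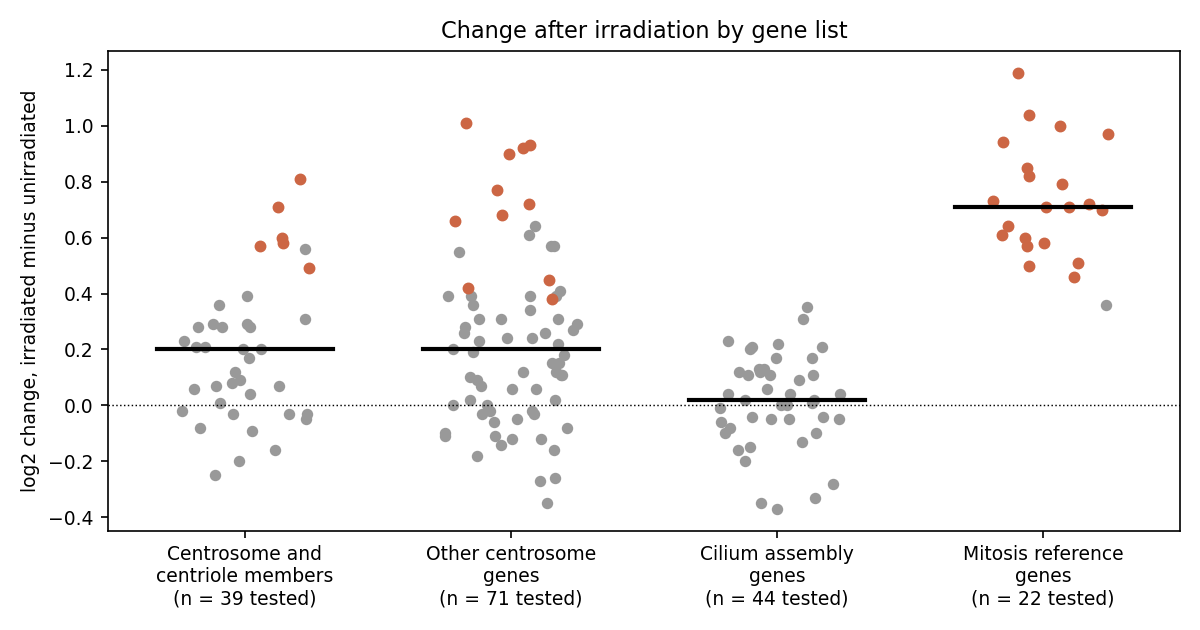
Log2 change (irradiated minus unirradiated, vertical axis) of each tested gene in 4 lists; orange points were called higher, grey points were not called, and black lines are medians. The medians are 0.20 for the centrosome and centriole genes, 0.20 for the other centrosome genes, 0.02 for cilium assembly genes and 0.71 for mitosis genes.

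Of the 6 calls, those of Stil and Cep57l1 held in every fit without 1 array. The number of centrosome and centriole genes called in these fits was 2 to 5, and at most 4 of them were among the 6. The number of calls was 3 without the filter on low values and 3 without the intensity trend. The share of all tested genes called higher, 2.00% as reported, was also lower in these fits. It was 0.907% without the filter, 1.02% without the trend and 1.08% to 1.52% with 1 array left out. Without unirradiated replicate 1, irradiated replicate 1 or irradiated replicate 2 the count of centrosome and centriole genes was 2. Without unirradiated replicate 3 or irradiated replicate 3 it was 3. Without unirradiated replicate 2 it was 5, made up of 4 of the 6 and Cep128. The 6 calls themselves had log2 changes above 0 in all 18 alternatives.

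**Figure D5:**
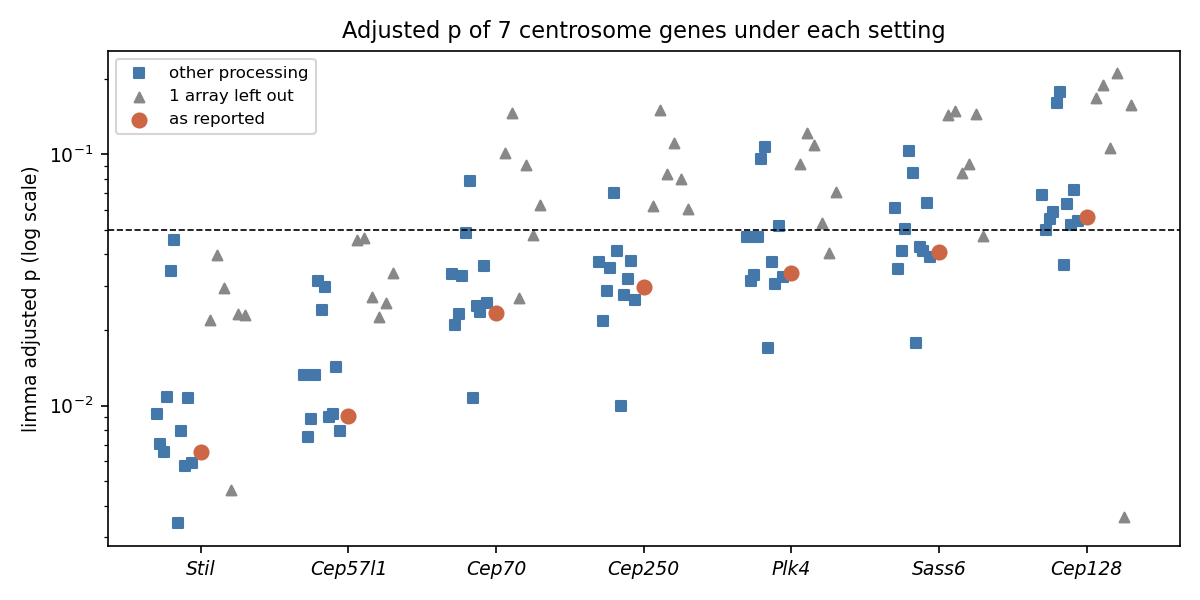
Limma adjusted p (vertical axis, log scale) of the 6 called genes and Cep128 as reported (circle), under other processing choices (squares) and with 1 array left out (triangles); the dashed line is 0.05. All points of Stil and Cep57l1 lie below the line, and the other genes have points on both sides.

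As a check of the labelled cell type, all 15 keratinocyte markers found passed the filter, with Krt5, which was not called, at 6123 ± 373 without and 4845 ± 609 with irradiation. They were not all bright. Krt10 lay near the filter, at 29.1 ± 2.41 without and 20.2 ± 7.43 with irradiation, and Krt1 was at 91.7 ± 11.8 and 69.6 ± 12.5. Of the 15 keratinocyte markers, 5 fell by limma (Krt14, Krt15, Krt17, Tp63 and Sfn, log2 changes from -0.62 to -0.38) and 0 rose. Among all tested genes, 0.773% were called lower and 2.00% higher. Of 20 markers of fibroblasts, immune, endothelial, pigment and muscle cells, 16 lay below the filter and 0 were at 0 on all arrays of a group. Their summed intensity was 598.1 to 661.8 without and 510.5 to 560.0 with irradiation, most of it from Col3a1, which fell by 0.46 on the log2 scale (limma adjusted p = 0.0271). Without Col3a1 the sum was 211.6 to 225.7 and 231.7 to 259.0. The dimmer collagen genes of the list went the other way. Col1a1 went from 17.3 ± 3.53 to 36.1 ± 4.2 (log2 change 0.65 ± 0.17, limma adjusted p = 0.0825, not called). Col1a2, below the filter, went from 4.43 ± 2.25 to 10.5 ± 1.5. The part of these marker differences in the centrosome results was not tested. Correlations of log2 values over tested probe sets were 0.984 to 0.988 between arrays within groups and 0.980 to 0.984 between groups.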

How the data were processed

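RNA from 6 samples of 1 rat keratinocyte line, 3 unirradiated and 3 irradiated, was read on 1 Affymetrix array each. The deposited values are linear intensities of probe sets; per the submitters' design text the authors used BRB ArrayTools 3.3.0, while how probe sets were summarised and scaled is not given in the sources used here. Means after trimming 2% of probe sets at each end were 150.04 to 150.05, so arrays had been scaled to a common level, and the table was kept as deposited. Without the 57 controls, probe sets at or below the 40th percentile of mean intensity were removed, leaving 18625 of 31042. Log2(intensity + 16) was modelled by lmFit and eBayes of limma 3.58.1, under R 4.3.3 (intensity trend, no covariate, two-sided), with Benjamini-Hochberg adjustment over all tested probe sets. Precision is limited by the number of arrays; for the genes described, log2 changes had a median SE of 0.13.

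Names came from the platform annotation (20826 probe sets with 1 symbol, 436 with several, 9780 with none), and the symbols of all 44 genes matched RefSeq (GRCr8) by Entrez ID. A gene was represented by its probe set with the highest mean. The genes, role groups and lists were chosen with earlier results of these data known. Named genes were those called, 11 core genes, the 4 smallest p and 3 lowest changes among genes not called, and called genes of the other lists. On simulated data with 18625 probe sets and 200 changed, 45% of the log2 changes set at 0.5 and 92% of those set at 1 were called, and 2.84% of calls were false. The simulated noise was normal and independent, with variances from the same limma fit. The check therefore cannot show how calls fare where those assumptions fail. The alternatives tried were a pseudocount of 1 or 64, values floored at 10, quantile, median and cyclic loess normalization, no filter or the 60th percentile, no trend, robust eBayes, averaged probe sets, a threshold of 0.1 and leaving out each array.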

Additional observations from a re-analysis of the deposited data

How the results depend on the processing

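Over 18 alternatives, the number of centrosome and centriole genes called lower was 0 in each fit by limma. The number called higher, 6 as reported, was 3 without a filter on low values and 3 without an intensity trend, from 2 to 5 with 1 array left out, and from 4 to 7 in the other 10 alternatives. In the same order, the share of all tested genes called higher was 0.907%, 1.02%, 1.08% to 1.52% and 1.82% to 3.05%. Of 555 alternative values for 31 named genes, 490 kept direction and side of the threshold, 53 lost the call, 3 gained it (all Cep128) and 9 turned sign, in Cep135, Cep152 and Cetn3, none of which was called. The log2 change of Cep135, 0.01 as reported, was -0.03 with quantile normalization, -0.01 with median centring and -0.02 with cyclic loess, and from -0.13 to 0.13 with 1 array left out. With 1 array left out, Cep152 ran from -0.19 to 0.12, and Cetn3 from -0.05 to 0.0032, its 1 value above 0 being without unirradiated replicate 2. The cause of these differences was not tested. The median over the tested genes lay between 0.11 and 0.21 in every alternative. Dim probe sets (Cep72, Cep97, Cep126, Cep290, Cep295nl) are too close to background for a change to be read.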
